A study of Homo sapiens with 12 samples.

Results

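Transcript levels of 10 transcription factors known from the gonadal ridge, the mesothelium and neighbouring mesenchyme were compared among 3 human ovarian cell lines. The genes were taken by name (GATA4, GATA6, TBX18, TCF21, NR2F1, NR2F2, LHX9, LHX2, ZIC1 and ZIC2) and are 10 of the 61533 gene identifiers in the files. PEO-4 cells are labelled as ovarian cystadenocarcinoma and SKOV-3 cells as ovarian serous cystadenocarcinoma, and the study describes both as grown from ascites, PEO-4 with high-grade serous histology and SKOV-3 as clear cell. T1074 cells are ovarian epithelial cells immortalized with SV40 and serve as the non-cancerous comparison. All 3 lines carry the genotype label WT, none is labelled with a treatment, and each is a single line with 4 libraries (12 in all). PEO-4 cells grew in RPMI 1640, SKOV-3 cells in McCoy's 5A and T1074 cells in Prigrow I, all with serum, so that line and medium cannot be told apart. The labels do not say whether the 4 libraries of a line came from separate cultures, and p-values therefore measure only the spread between these libraries.

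The surface epithelium of the ovary and the mesothelium that lines the body cavity both descend from the coelomic epithelium. In the embryo a thickening of this epithelium, the gonadal ridge, depends on GATA4, LHX9 and other DNA-binding proteins, among them WT1, EMX2 and NR5A1. Each of the 10 genes encodes a protein that binds DNA and switches genes on or off, and they belong to 6 families: GATA zinc fingers, T-box proteins, basic helix-loop-helix proteins, COUP-TF nuclear receptors, LIM-homeodomain proteins and ZIC zinc fingers.

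Total RNA was depleted of ribosomal RNA and sequenced. Summed expected counts, the read numbers that RSEM assigns to transcripts, lay between 38690954 and 47148161 for PEO-4, between 47340136 and 55739060 for SKOV-3 and between 19780836 and 38583368 for T1074. T1074 replicate 1 stood apart, with the lowest total and 21.4% of its counts in ribosomal RNA genes, where the remaining replicates of that line had 4.36 to 5.12%. TPM is the length-adjusted abundance that the authors deposited. In TPM the epithelial markers summed to 555 to 1030 for PEO-4, 240 to 434 for SKOV-3 and 241 to 617 for T1074. Keratins carried much of the sum in every line. KRT19 averaged 235 TPM in PEO-4, KRT7 116 TPM in SKOV-3 and KRT8 177 TPM in T1074. In CPM, counts scaled to a fixed library total with TMM factors, KRT8 was at 616 ± 304 in T1074 (SD, n = 4). EPCAM (0.0964 ± 0.036 CPM) and CDH1 (0.354 ± 0.0828 CPM) were near 0 in T1074, so the epithelial markers did not go together in that line. EPCAM averaged 163 CPM in PEO-4 and 24.5 CPM in SKOV-3. The fibroblast markers summed to between 21.7 and 26.9 TPM for PEO-4, between 300 and 736 TPM for SKOV-3 and between 168 and 409 TPM for T1074. THY1 (20 TPM) carried most of the PEO-4 sum. VIM (337 TPM) and S100A4 (214 TPM) carried the SKOV-3 sum, with COL1A1 at 1.51 TPM and COL3A1 at 0.0975 TPM there. The mesothelial markers summed to between 80.3 and 123 TPM for PEO-4, between 6.4 and 8.95 TPM for SKOV-3 and between 38.4 and 91.3 TPM for T1074. MSLN (69.2 TPM) and WT1 (22.5 TPM) carried the PEO-4 sum, with CALB2 at 0.0025 TPM, LRRN4 at 0.01 TPM and ITLN1 at 0 there. PTPRC, the marker of all leukocytes, had 0 counts in PEO-4, 2 in SKOV-3 and 19 in T1074. The marker genes named here were singled out after their values were seen.

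The 10 genes fell into 4 patterns across the lines. GATA4, TCF21, ZIC1 and, at a low level, LHX2 were highest in T1074 and at or near 0 in both carcinoma lines. TBX18, NR2F1 and NR2F2 were present in PEO-4 and T1074 and were absent or lower in SKOV-3. GATA6 and LHX9 were present in SKOV-3 and T1074 and were lower or absent in PEO-4. ZIC2 was abundant in SKOV-3 alone of the 3 lines. In bulk libraries fewer expressing cells and less RNA per cell cannot be told apart.

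**Figure D1:**
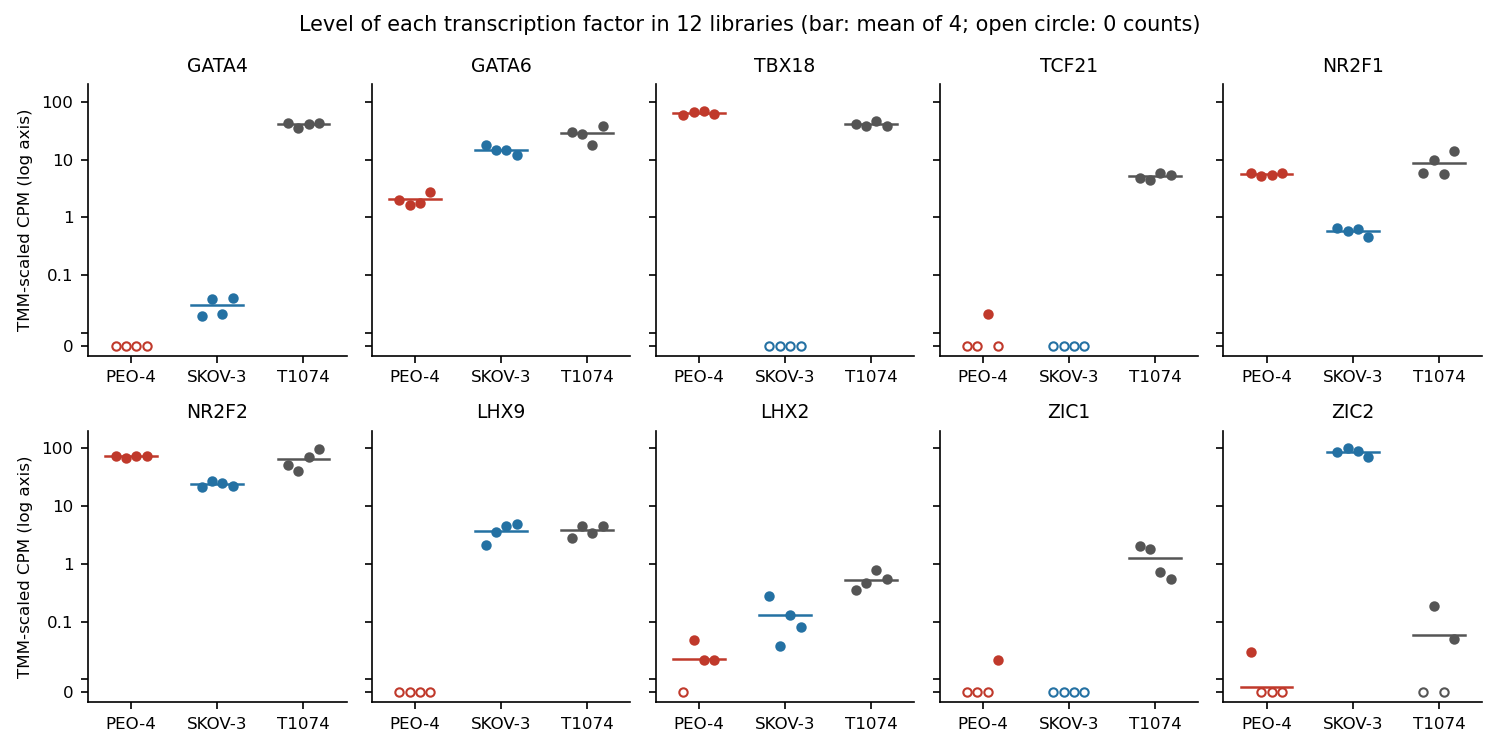
Level of each gene in every library as TMM-scaled CPM on a log axis, with PEO-4, SKOV-3 and T1074 from left to right, a bar at the mean of 4 libraries and open circles for libraries with 0 counts. TBX18 averaged 64.5 CPM in PEO-4 and 40.9 CPM in T1074 with 0 counts in SKOV-3, and ZIC2 averaged 87 CPM in SKOV-3 with at most 0.183 CPM elsewhere.

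In PEO-4 against T1074, 1 of the 10 genes was higher (TBX18) and 8 were lower, with NR2F2 not passing the test, beside 74.1% of all 19898 genes tested that were called in either direction, 36.3% higher and 37.8% lower. In SKOV-3 against T1074, 1 was higher (ZIC2), 8 were lower and 1 did not pass (LHX9), beside 67.8% of all genes called, 33.3% higher and 34.5% lower. In PEO-4 against SKOV-3, 3 were higher (TBX18, NR2F1 and NR2F2), 5 were lower and 2 did not pass (TCF21 and ZIC1), beside 75.2% of all genes called, 38.5% higher and 36.7% lower. The median log2 fold change of the 10 genes was -4.08, -2.99 and -0.37 in these comparisons, against -0.01, -0.03 and 0.05 over all genes tested. With genes at 0 counts set at their bound and genes that get no fold left out, the medians were -4.56 over 9 genes, -2.99 over 10 genes and -2.46 over 7 genes. The counts are no support for a pattern of the set. Of the 10 genes, 5 (GATA4, TCF21, LHX2, ZIC1 and ZIC2) reached the filter level of 0.232 CPM in all libraries of 1 line only. That line was T1074, or SKOV-3 for ZIC2, and comparisons with it were tilted toward a difference by this choice. Comparisons between the remaining lines were not. The comparisons of the carcinoma lines with T1074 share the T1074 libraries. A gene was called at an adjusted p under 0.05 in edgeR's quasi-likelihood test with Benjamini-Hochberg adjustment over all genes tested. Without T1074 replicate 1, 9 genes were called in each comparison with T1074, as with it.

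**Figure D2:**
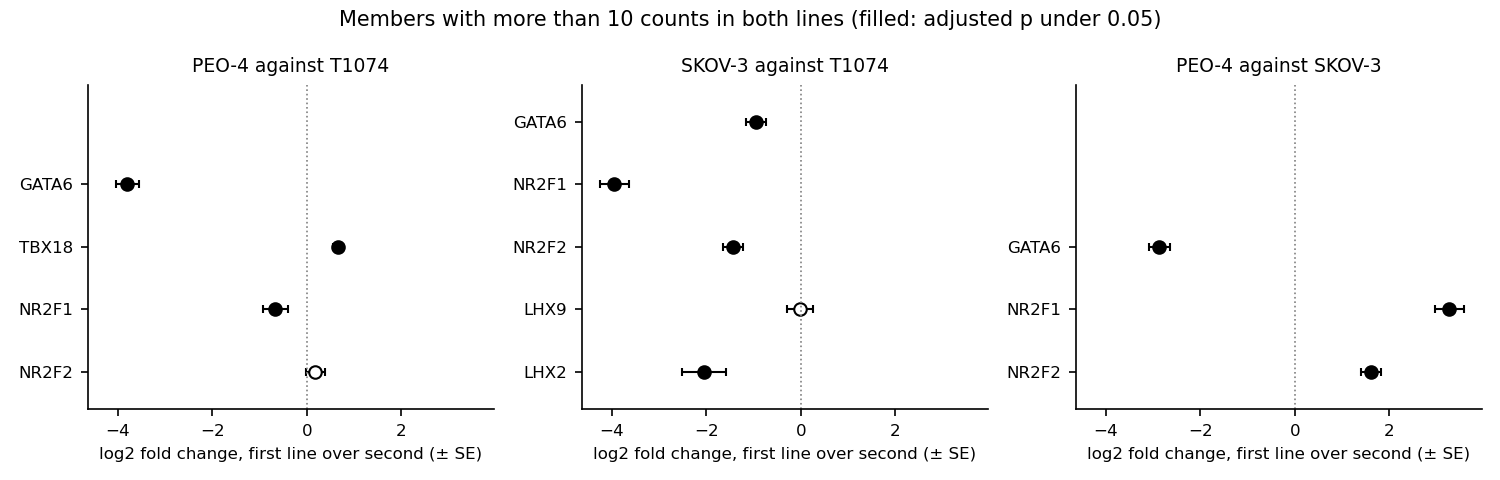
Log2 fold change with its standard error for the genes with more than 10 counts in both lines, first line over second, with filled points where the edgeR adjusted p was under 0.05. GATA6 stood at -3.79 in PEO-4 against T1074 and NR2F1 at -3.94 in SKOV-3 against T1074, and the open points are NR2F2 (0.18) and LHX9 (-0.02).

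GATA4 (ENSG00000136574.19, chr8:11676959-11760002, plus strand, GENCODE 44 on GRCh38) is required for the first outgrowth of the gonadal ridge in mice and later acts with NR5A1 on genes of steroid synthesis. It had 0 counts in all 4 PEO-4 libraries. In SKOV-3 it had 1, 2, 1 and 2 counts, and in T1074 872, 1548, 1708 and 1717 counts. The T1074 libraries ran from 35.5 to 43.8 CPM and shared no value with either carcinoma line. Against a floor of 3 counts per library, GATA4 was at least 565-fold lower in PEO-4 than in T1074 (edgeR adjusted p = 7.42e-12). In SKOV-3 the 6 counts put it 1340-fold lower than T1074, with an exact 95% interval of 615 to 3650 for counting error alone (edgeR adjusted p = 1.04e-11). This ratio and the bound for PEO-4 follow different rules and do not rank PEO-4 and SKOV-3. In T1074 the transcripts GATA4-201 and GATA4-206 took 53.3% and 23.6% of the gene's TPM on average, and GATA4-205 and GATA4-207, with the most upstream start, took 0.295% and 1.16%. Between PEO-4 and SKOV-3, both at or under the floor, GATA4 gets no fold (edgeR adjusted p = 0.01).

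GATA6 (ENSG00000141448.11, chr18:22169589-22202528, plus strand), which partners GATA4 in gonadal and heart tissue, was detected in every library. It measured 2.02, 1.64, 1.76 and 2.75 CPM in PEO-4 and 17.6, 14.9, 14.9 and 11.8 CPM in SKOV-3. In T1074 it measured 29.9, 28.2, 17.7 and 37.6 CPM. The 3 lines did not overlap, although the lowest T1074 library lay next to the highest SKOV-3 library. GATA6 averaged 2.04 ± 0.495 CPM in PEO-4 and 28.4 ± 8.19 CPM in T1074 (SD, n = 4 each), a log2 fold change of -3.79 ± 0.24 (SE, edgeR adjusted p = 3.9e-09). SKOV-3 averaged 14.8 ± 2.36 CPM, lower than T1074 by a log2 fold change of -0.94 ± 0.21 (edgeR adjusted p = 0.00119). PEO-4 was lower than SKOV-3 by a log2 fold change of -2.86 ± 0.23 (edgeR adjusted p = 5.7e-08), so each neighbouring pair in the order PEO-4, SKOV-3, T1074 differed. The long transcript GATA6-201 took 59.1 to 63.9% of the gene's TPM in SKOV-3 and 42.6 to 50.0% in T1074, with the rest in GATA6-202, whose annotated start lies downstream. GATA6-AS1, a lncRNA gene on the opposite strand whose start lies 289 bp from that of GATA6, had the same order of lines. It averaged 0.0537 ± 0.0455 CPM in PEO-4, 0.251 ± 0.0468 CPM in SKOV-3 and 1.55 ± 0.736 CPM in T1074, and it was lower in PEO-4 than in T1074 (log2 fold change -4.77 ± 0.54, edgeR adjusted p = 1.61e-06), in SKOV-3 than in T1074 (-2.6 ± 0.43, edgeR adjusted p = 8.1e-05) and in PEO-4 than in SKOV-3 (-2.17 ± 0.6, edgeR adjusted p = 0.00456). GATA6-AS1 had only 1, 5, 1 and 2 counts in the PEO-4 libraries, so the size of its fitted changes involving PEO-4 is uncertain. The other lncRNA genes that overlap GATA6, ENSG00000266283 and ENSG00000264012, had 35.4 and 2 counts over the 12 libraries, and RNU6-702P had 0. The library kit keeps strand, but the strand setting of the authors' counting is not given in the sources used here, and reads of genes that overlap on opposite strands cannot be told apart.

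TBX18 (ENSG00000112837.17, chr6:84687351-84764598, minus strand) encodes a T-box repressor known from the epicardium and, in mice, from the mesenchyme of the developing urogenital tract. It measured 58.7, 67.5, 70.8 and 61.2 CPM in PEO-4 and had 0 counts in all 4 SKOV-3 libraries. T1074 measured 40.8, 38.0, 45.9 and 38.9 CPM. PEO-4 lay above T1074 without overlap, with a log2 fold change of 0.66 ± 0.11 (64.5 ± 5.56 against 40.9 ± 3.51 CPM, SD, n = 4 each, edgeR adjusted p = 0.000157). On the deposited TPM scale the means had the other order, at 5.28 ± 1.15 TPM in PEO-4 and 6.45 ± 1.1 TPM in T1074, while the log2 fold change stayed between 0.46 and 0.81 over 19 alternative settings of the test. Against the floor of 3 counts per library TBX18 was at least 677-fold lower in SKOV-3 than in T1074 (edgeR adjusted p = 5.1e-12) and at least 1070-fold higher in PEO-4 than in SKOV-3 (edgeR adjusted p = 3.4e-12). The longest transcript, TBX18-202, took 48.9% of the gene's TPM in PEO-4 and 41.6% in T1074, and 91.4% and 88.8% of its counts, which favour long transcripts. TBX18-AS1 had at most 5 counts in a line, and ENSG00000287294, a lncRNA gene that starts 4412 bp from TBX18 on the opposite strand, had 2, 3, 2 and 2 counts in PEO-4, 0 in SKOV-3 and 1 in T1074, too few to test.

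TCF21 (ENSG00000118526.7, chr6:133889113-133895553, plus strand) encodes a basic helix-loop-helix protein of visceral and gonadal mesenchyme, and in mice it restrains Nr5a1. It had 0, 0, 1 and 0 counts in PEO-4 and 0 counts in every SKOV-3 library, while T1074 had 94.8, 194, 236 and 220 expected counts. The T1074 libraries ran from 4.44 to 5.78 CPM and overlapped with neither carcinoma line. From 1 count, TCF21 was 867-fold lower in PEO-4 than in T1074, with an exact 95% counting interval of 155 to 34300 (edgeR adjusted p = 6.52e-09). In SKOV-3 it was at least 84.6-fold lower than in T1074 (edgeR adjusted p = 6.4e-09), and PEO-4 and SKOV-3, both at the floor, get no fold. The ratio for PEO-4 and the bound for SKOV-3 follow different rules and do not rank these lines. The lncRNA gene TARID overlaps TCF21 on the opposite strand and is known for a part in keeping the TCF21 promoter free of methylation. TARID averaged 0.255 ± 0.127 CPM in PEO-4, 0.351 ± 0.108 CPM in SKOV-3 and 0.145 ± 0.0578 CPM in T1074. It was higher in SKOV-3 than in T1074 (log2 fold change 1.31 ± 0.44, edgeR adjusted p = 0.016) and did not pass in PEO-4 against T1074 (0.84 ± 0.46, edgeR adjusted p = 0.114).

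The 250 bases before the RefSeq starts of TBX18, TCF21 and ZIC2, genes abundant in at least 1 line and at or near 0 in another, are shown as transcribed (RefSeq, GRCh38.p14). They were searched on both strands for 6 motifs: AGATAA of GATA factors, AGGTGT of T-box proteins, AGGTCA of nuclear receptors, TAATTA of homeodomain proteins, the E-box CAGCTG and the CCAAT box. Capitals mark matches on either strand, and no matches overlapped. The windows are chr6:84764599-84764848 (minus strand) for TBX18, chr6:133888863-133889112 for TCF21 and chr13:99981534-99981783 for ZIC2. The windows of TBX18 and ZIC2 lie outside every annotated transcript, and that of TCF21 lies within exons of TARID.
TBX18: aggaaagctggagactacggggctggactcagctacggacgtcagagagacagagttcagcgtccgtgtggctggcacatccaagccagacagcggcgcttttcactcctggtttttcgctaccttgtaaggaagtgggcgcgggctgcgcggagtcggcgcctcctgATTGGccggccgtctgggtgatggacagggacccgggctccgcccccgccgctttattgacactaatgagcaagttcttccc
TCF21: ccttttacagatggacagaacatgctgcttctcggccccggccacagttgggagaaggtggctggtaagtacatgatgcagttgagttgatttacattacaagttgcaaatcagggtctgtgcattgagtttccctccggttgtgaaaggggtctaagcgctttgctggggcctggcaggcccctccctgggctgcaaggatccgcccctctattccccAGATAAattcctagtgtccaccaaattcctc
ZIC2: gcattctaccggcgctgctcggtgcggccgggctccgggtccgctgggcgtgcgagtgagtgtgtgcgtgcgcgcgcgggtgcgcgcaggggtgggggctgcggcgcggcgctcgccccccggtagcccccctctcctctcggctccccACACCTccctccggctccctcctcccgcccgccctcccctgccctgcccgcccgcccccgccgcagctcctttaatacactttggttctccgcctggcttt
TBX18 held 1 CCAAT box, a motif found in 32.0% of all 35116 RefSeq windows of this length. TCF21 held 1 AGATAA (9.17% of all windows) and ZIC2 held 1 AGGTGT (9.57%). These matches describe letters and not bound sites. The windows also differed in CpG content: ZIC2 held 31 CpG, TBX18 20 and TCF21 5, against a median of 11.0 over all windows. RefSeq windows matched 9 of the 10 genes, GATA4 having none in the table.

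NR2F1 (ENSG00000175745.14, chr5:93583222-93594611, plus strand) and NR2F2 (ENSG00000185551.15, chr15:96325938-96340263, plus strand) encode the nuclear receptors COUP-TFI and COUP-TFII, mostly repressors, and COUP-TFII marks stromal cells of the ovary. NR2F1 measured 5.89, 5.19, 5.50 and 5.88 CPM in PEO-4 and 0.663, 0.576, 0.621 and 0.451 CPM in SKOV-3. In T1074 it measured 5.77, 9.74, 5.54 and 14.3 CPM. SKOV-3 lay below both other lines, and T1074 and PEO-4 overlapped. SKOV-3 averaged 0.578 ± 0.0916 CPM against 8.84 ± 4.13 CPM in T1074, a log2 fold change of -3.94 ± 0.3 (SD, n = 4 each, edgeR adjusted p = 4.07e-08). PEO-4, at 5.61 ± 0.337 CPM, exceeded SKOV-3 by a log2 fold change of 3.27 ± 0.3 (edgeR adjusted p = 1.74e-07). The call of NR2F1 as lower in PEO-4 than in T1074 (log2 fold change -0.66 ± 0.26, edgeR adjusted p = 0.0304) was lost under several other settings. Its log2 fold change was -0.32 without T1074 replicate 4 (edgeR adjusted p = 0.165) and -0.58 with DESeq2's size factors (edgeR adjusted p = 0.0508). The opposite-strand gene NR2F1-AS1, which overlaps the start of NR2F1, averaged 2 ± 0.427 CPM in PEO-4, 0.341 ± 0.168 CPM in SKOV-3 and 3.65 ± 1.11 CPM in T1074. It was lower in SKOV-3 than in T1074 (log2 fold change -3.42 ± 0.35, edgeR adjusted p = 7.98e-07) and lower in PEO-4 than in T1074 (-0.87 ± 0.3, edgeR adjusted p = 0.018).

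NR2F2 measured 74.0, 69.3, 75.2 and 73.3 CPM in PEO-4 and 21.3, 27.4, 25.1 and 21.9 CPM in SKOV-3. In T1074 it measured 51.7, 39.8, 70.5 and 96.0 CPM. PEO-4 was tight and lay within the T1074 range, and SKOV-3 lay below both. NR2F2 was lower in SKOV-3 than in T1074 by a log2 fold change of -1.43 ± 0.21 (24 ± 2.85 against 64.5 ± 24.5 CPM, SD, n = 4 each, edgeR adjusted p = 2.56e-05). PEO-4, at 73 ± 2.54 CPM, was higher than SKOV-3 by a log2 fold change of 1.61 ± 0.21 (edgeR adjusted p = 6.62e-06). PEO-4 against T1074 gave 0.18 ± 0.2 (edgeR adjusted p = 0.444), -0.01 without T1074 replicate 2 (edgeR adjusted p = 0.959), 0.44 without T1074 replicate 4 (edgeR adjusted p = 0.0256) and 0.51 on counts from length-scaled TPM (edgeR adjusted p = 0.024). NR2F2-AS1, which overlaps the 5′ end of NR2F2 on the opposite strand, did not follow this order. It averaged 0.243 ± 0.147 CPM in PEO-4, 0.507 ± 0.119 CPM in SKOV-3 and 1.94 ± 0.526 CPM in T1074, and was lower in PEO-4 than in T1074 (log2 fold change -2.96 ± 0.37, edgeR adjusted p = 4.85e-06) and than in SKOV-3 (-1.03 ± 0.38, edgeR adjusted p = 0.0259).

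**Figure D3:**
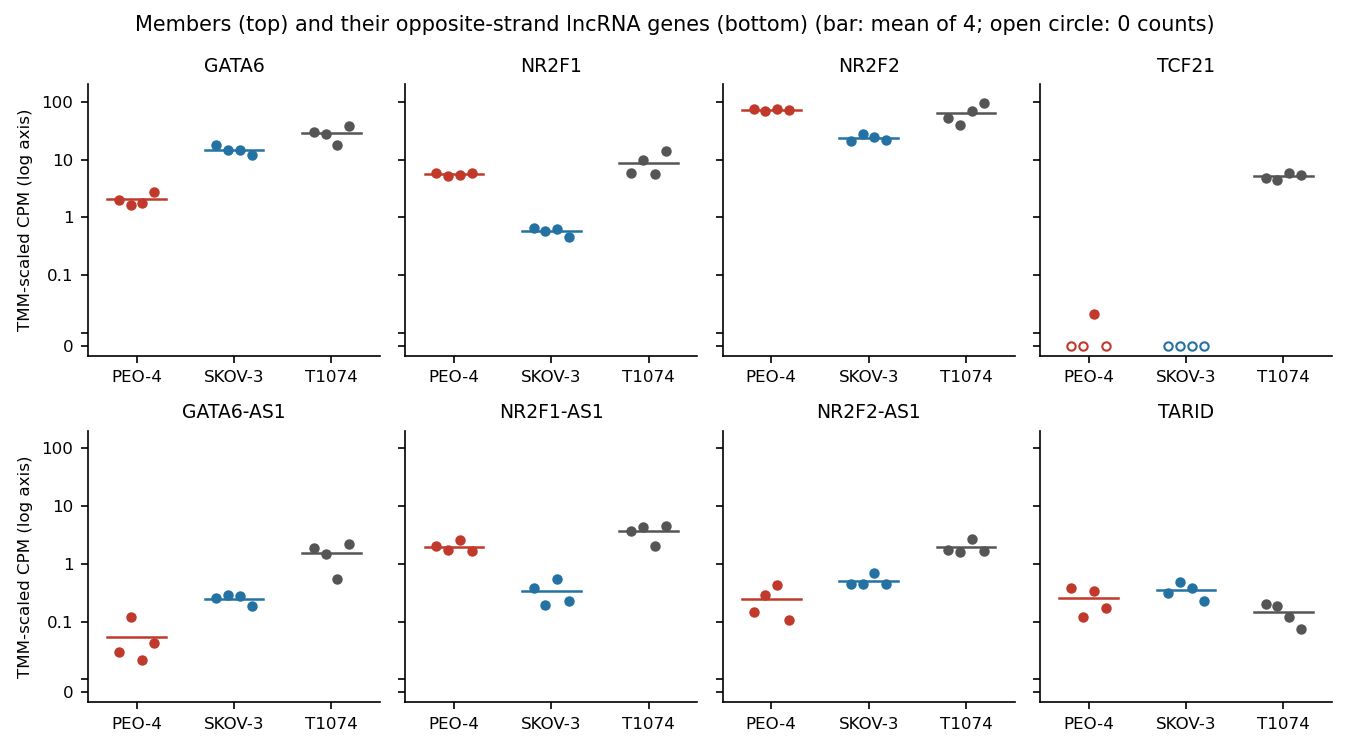
TMM-scaled CPM on a log axis of GATA6, NR2F1, NR2F2 and TCF21 in the upper row and of the lncRNA gene on the opposite strand of each in the lower row, for PEO-4, SKOV-3 and T1074, with a bar at the mean of 4 libraries. GATA6-AS1 averaged 0.0537, 0.251 and 1.55 CPM in PEO-4, SKOV-3 and T1074, and NR2F2-AS1 averaged 0.243 CPM in PEO-4 although NR2F2 averaged 73 CPM there.

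Within NR2F2, the shorter transcript NR2F2-204 was higher in PEO-4 than in T1074 on both scales, although the gene total did not pass the test. NR2F2 has several starts: that of NR2F2-203 (at 96325938) lies farthest upstream, NR2F2-201 (at 96330700) encodes the full receptor with its DNA-binding domain, and NR2F2-204 (at 96333163) starts inside an intron of NR2F2-201. NR2F2-204 measured 4.29, 4.62, 5.44 and 4.92 TPM in PEO-4, 0.51, 0.57, 0.79 and 0.55 TPM in SKOV-3 and 1.4, 1.12, 1.64 and 1.3 TPM in T1074. Every PEO-4 library lay above every library of the other lines. NR2F2-201 measured 1.1, 1.32, 1.45 and 1.26 TPM in PEO-4, 0.83, 1.11, 1.04 and 0.89 TPM in SKOV-3 and 2.98, 2.74, 2.87 and 4.7 TPM in T1074. On TPM every PEO-4 library lay below every T1074 library, but on TMM-scaled CPM the lines overlapped, at 25.3, 23.8, 24.3 and 23.2 CPM in PEO-4 and 33.5, 23.0, 40.4 and 55.2 CPM in T1074. NR2F2-204 stayed apart on that scale, at 24.6 to 29.3 CPM in PEO-4 and 2.76 to 6.8 CPM in T1074. As a share of the gene's TPM, NR2F2-204 took between 47.8 and 56.4% in PEO-4, between 21.0 and 25.1% in SKOV-3 and between 9.37 and 15.3% in T1074. NR2F2-201 took between 12.5 and 14.5% in PEO-4, between 29.1 and 40.8% in SKOV-3 and between 24.9 and 33.9% in T1074. These shares are RSEM estimates for transcripts that share exons, and they were not tested.

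**Figure D4:**
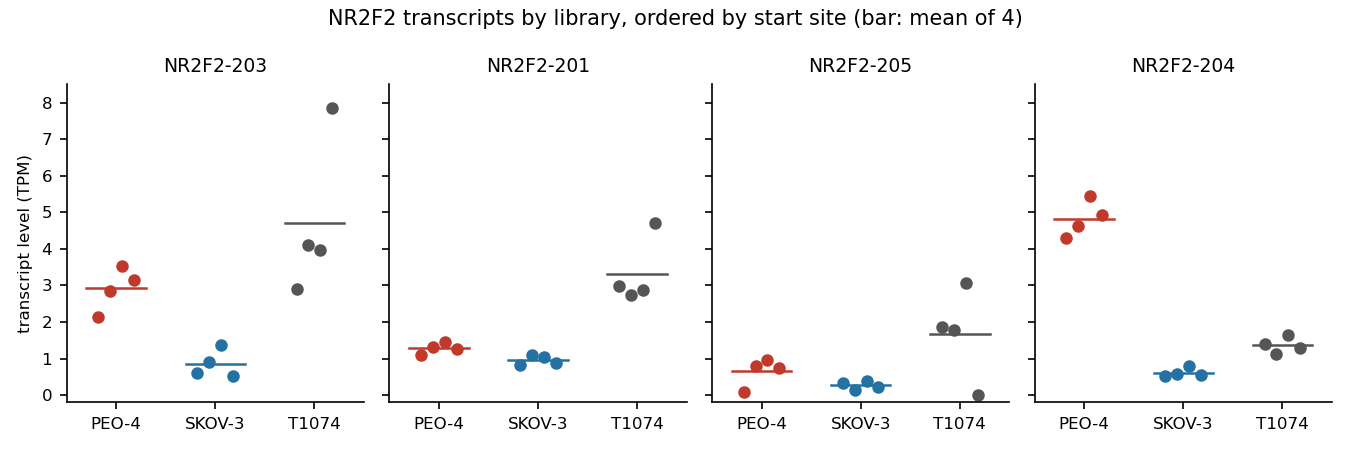
Level in TPM of 4 NR2F2 transcripts in each library, from the most upstream to the most downstream start, for PEO-4, SKOV-3 and T1074, with a bar at the mean of 4 libraries. NR2F2-204 lay at 4.29 to 5.44 TPM in PEO-4 and at 1.12 to 1.64 TPM in T1074, while NR2F2-201 lay at 1.1 to 1.45 TPM in PEO-4 and at 2.74 to 4.7 TPM in T1074.

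The 250 bases before the starts of NR2F1-201 and NR2F2-201, the transcripts that encode the full receptors, are shown because they hold the same run of 20 letters, in capitals (chr5:93582972-93583221 and chr15:96330450-96330699, GRCh38, plus strand). A further sequence lies before the start of NR2F2-204 (chr15:96332913-96333162), the transcript that led in PEO-4, and holds none of the 6 motifs.
NR2F1: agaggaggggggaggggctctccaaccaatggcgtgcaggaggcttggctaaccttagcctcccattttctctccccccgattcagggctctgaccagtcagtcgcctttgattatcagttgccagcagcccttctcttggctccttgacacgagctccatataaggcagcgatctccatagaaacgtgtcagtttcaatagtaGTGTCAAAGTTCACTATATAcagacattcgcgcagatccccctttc
NR2F2-201: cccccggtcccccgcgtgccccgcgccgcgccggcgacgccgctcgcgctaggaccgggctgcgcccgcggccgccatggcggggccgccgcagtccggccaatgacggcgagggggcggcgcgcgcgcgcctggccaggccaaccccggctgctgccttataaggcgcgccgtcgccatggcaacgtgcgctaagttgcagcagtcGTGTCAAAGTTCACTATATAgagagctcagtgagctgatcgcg
NR2F2-204: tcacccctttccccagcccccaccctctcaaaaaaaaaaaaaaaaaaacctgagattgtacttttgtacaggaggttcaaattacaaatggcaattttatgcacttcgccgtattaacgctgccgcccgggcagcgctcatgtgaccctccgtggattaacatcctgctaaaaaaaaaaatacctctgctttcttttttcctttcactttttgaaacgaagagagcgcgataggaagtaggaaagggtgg
The shared run ends 26 bases before the start of NR2F1 and 23 bases before that of NR2F2-201. It was found in 1 of the 35116 RefSeq windows, that of NR2F1, since the table has no window at the start of NR2F2-201. Among 73 pairs of windows from different members, 1 other pair shared 20 letters, a run of A ended by a C. The window of NR2F2-201 held 40 CpG, that of NR2F1 8 and that of NR2F2-204 10. This run was noticed on reading the sequences, and it marks similarity between paralogs and no measured binding.

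LHX9 (ENSG00000143355.16, chr1:197911902-197935478, plus strand), a LIM-homeodomain protein without which mice form no gonads, had 0 counts in all 4 PEO-4 libraries. SKOV-3 measured 2.12, 3.59, 4.45 and 4.94 CPM and T1074 measured 2.81, 4.54, 3.4 and 4.48 CPM. SKOV-3 and T1074 overlapped and PEO-4 stood apart from both. LHX9 was at least 52.6-fold lower in PEO-4 than in T1074 (edgeR adjusted p = 5.11e-08) and at least 52.2-fold lower than in SKOV-3 (edgeR adjusted p = 5.14e-08). SKOV-3 averaged 3.78 ± 1.23 CPM and T1074 3.81 ± 0.844 CPM (SD, n = 4 each), with a log2 fold change of -0.02 ± 0.27 (edgeR adjusted p = 0.955), which lay between -0.23 and 0.33 over 19 alternative settings. C1orf53, which starts 9272 bp upstream of LHX9 on the same strand, was highest in PEO-4, at 4.44 ± 0.836 CPM against 0.991 ± 0.41 CPM in T1074 (log2 fold change 2.15 ± 0.27, edgeR adjusted p = 4.88e-06).

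LHX2 (ENSG00000106689.11, chr9:124001670-124033301, plus strand), the paralog of LHX9 and known from eye, forebrain and hair follicle, was low throughout. It had 0, 2, 1 and 1 counts in PEO-4, 14, 2, 6 and 4 counts in SKOV-3 and 7, 20, 32 and 22 counts in T1074. PEO-4 and SKOV-3 overlapped in CPM, and T1074 lay above both. LHX2 was lower in SKOV-3 than in T1074 (0.13 ± 0.102 against 0.535 ± 0.184 CPM, log2 fold change -2.04 ± 0.47, edgeR adjusted p = 0.00148). In PEO-4 its 4 counts put it 23.6-fold lower than in T1074, with an exact 95% counting interval of 8.86 to 88.6 (edgeR adjusted p = 2.12e-05), and 5.5-fold lower than in SKOV-3 (1.91 to 21.7, edgeR adjusted p = 0.0104). Of the 26 counts in SKOV-3, 14 came from replicate 1, without which the fitted log2 fold change of PEO-4 against SKOV-3 was -1.68 in place of -2.33 (edgeR adjusted p = 0.0482). LHX2-AS1 and the 2 other annotated neighbours of LHX2 had 0 counts in every library.

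ZIC1 (ENSG00000152977.10, chr3:147393422-147510293, plus strand) encodes a zinc-finger protein known from neural and somite development. It had 0, 0, 0 and 1 counts in PEO-4 and 0 in every SKOV-3 library, against 40, 78, 30 and 22 counts in T1074. The T1074 libraries spread from 0.547 to 2.01 CPM, yet all lay above both carcinoma lines. ZIC1 was 198-fold lower in PEO-4 than in T1074, with an exact 95% counting interval of 35 to 7860 (edgeR adjusted p = 8.71e-06). In SKOV-3 it was lower by at least 21.0-fold (edgeR adjusted p = 5.78e-06). The ratio for PEO-4, from 1 count, and this bound at 0 counts do not rank the carcinoma lines. ZIC4, its neighbour on the opposite strand, had 0 counts in PEO-4 and SKOV-3 and 6, 8, 3 and 5 counts in T1074, under the filter on low counts. ZIC4-AS1 had 0 counts in every library.

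ZIC2 (ENSG00000043355.12, chr13:99981784-99986765, plus strand), known for its part in forebrain patterning, had 1, 0, 0 and 0 counts in PEO-4. SKOV-3 had 4506, 5226, 4174 and 3432 counts, and T1074 had 0, 8, 0 and 2 counts. SKOV-3 averaged 87 ± 12.4 CPM (SD, n = 4), far outside the range of the other lines. ZIC2 was 1260-fold higher in SKOV-3 than in T1074, with an exact 95% counting interval of 685 to 2630 (log2 fold change 10.25 ± 0.38, edgeR adjusted p = 2.95e-11). It was 14700-fold lower in PEO-4 than in SKOV-3, with an interval of 2630 to 580000 (edgeR adjusted p = 1.49e-11). Between PEO-4 and T1074, both near the floor, no fold is given, and the edgeR adjusted p of 0.0366 became 0.354 without T1074 replicate 2. The transcript ZIC2-201 took 99.8% of the gene's counts in SKOV-3. A lncRNA gene 1750 bp from the start of ZIC2 on the opposite strand, ENSG00000288060, had 5, 4, 11 and 6 counts in SKOV-3 and 0 in all libraries of the other lines.

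Set side by side on the length-adjusted TPM scale, the order of the 10 genes differed by line. In PEO-4, NR2F2 (9.67 ± 1.56 TPM) and TBX18 (5.28 ± 1.15 TPM) stood above NR2F1 (0.582 ± 0.0754 TPM) and GATA6 (0.202 ± 0.0532 TPM), and the rest were at 0.005 TPM or less. In SKOV-3, ZIC2 (10.2 ± 2.06 TPM) led NR2F2 (2.69 ± 0.638 TPM), GATA6 (1.66 ± 0.314 TPM) and LHX9 (0.528 ± 0.165 TPM), with NR2F1 at 0.085 ± 0.0332 TPM and the others at 0.0275 TPM or less. In T1074, NR2F2 (11.1 ± 2.12 TPM) came before GATA4 (6.56 ± 1 TPM), TBX18 (6.45 ± 1.1 TPM) and GATA6 (5.2 ± 1.91 TPM), which lay within each other's spread. TCF21 (1.81 ± 0.146 TPM) and NR2F1 (1.68 ± 0.785 TPM) followed in T1074, also within their spread. LHX9 (0.615 ± 0.263 TPM), ZIC1 (0.545 ± 0.365 TPM) and LHX2 (0.128 ± 0.0236 TPM) came last but for ZIC2, at 0.0125 ± 0.0189 TPM.

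The genes most like each member over the 12 libraries (Pearson r of log2 CPM) are given as a description, since the 12 points are 3 lines of 4. NR5A1, the nuclear receptor that drives steroid synthesis, was nearest to GATA4 (r = 0.998), followed by MME (r = 0.9975), a cell-surface peptidase. NR5A1 averaged 0.00541 ± 0.0108 CPM in PEO-4, 0.0247 ± 0.0191 CPM in SKOV-3 and 13.1 ± 0.977 CPM in T1074. CDKN2A and CDKN2B, the adjacent cell-cycle inhibitor genes, were nearest to TCF21 (r = 0.9985 and 0.9983) and had 0 CPM in both carcinoma lines. GALNT17 and the LIM-homeodomain gene LHX1 were nearest to ZIC2 (r = 0.9987 and 0.9977). GSPT2 and EVC2 were nearest to TBX18 (r = 0.9989 and 0.9988), LIFR and DPYSL3 to GATA6 (0.9955 and 0.992), and TMEM230 and GNB5 to LHX9 (0.9977 and 0.9953). ARPC1A and EFNB3 were nearest to NR2F1, SAMD4A and DDX23 to NR2F2, TRIM6 and CDC6 to LHX2, and HAUS6 and ZNF106 to ZIC1, with r between 0.9644 and 0.9937. Among the members themselves GATA4 and TCF21 gave r = 1.00 to 2 decimals, TBX18 and NR2F1 0.96, GATA6 and LHX9 0.95 and TBX18 and ZIC2 -0.99.

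Relatives and partners of the members were also read. Beside the counts of these and the following lists, 36.3% of all genes tested were higher and 37.8% lower in PEO-4 than in T1074. The shares were 33.3% and 34.5% in SKOV-3 against T1074, and 38.5% and 36.7% in PEO-4 against SKOV-3. The lists were chosen with earlier results of these data known. Some list genes reached the filter level in a single line, such as NR5A1 and HAND2 in T1074 and ZIC5 in SKOV-3. Comparisons with that line were tilted toward a difference, as for the members named above. Of 6 tested genes of the GATA family and its FOG cofactors, 3 were higher and 2 lower in PEO-4 than in T1074, 2 higher and 2 lower in SKOV-3 than in T1074, and 3 higher and 3 lower in PEO-4 than in SKOV-3 (median log2 fold changes 0.65, -0.33 and 0.6). ZFPM2, which encodes the GATA4 cofactor FOG2, was at 108 CPM in PEO-4, where GATA4 was absent, against 19.6 CPM in T1074 (log2 fold change 2.46, edgeR adjusted p = 9.78e-11). TRPS1, a GATA-type repressor, was at 733 CPM in PEO-4 and 138 CPM in SKOV-3 against 27.2 CPM in T1074 (4.75 and 2.35, edgeR adjusted p = 3.11e-12 and 1.41e-09). GATA2 was lower in PEO-4 than in T1074 (0.131 against 18 CPM, -7.07, edgeR adjusted p = 8.69e-12) and lower in SKOV-3 (1.44 CPM, -3.64, edgeR adjusted p = 5.31e-10).

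Of 8 tested T-box genes, 4 were higher and 2 lower in PEO-4 than in T1074, 5 higher and 1 lower in SKOV-3 than in T1074, and 2 higher and 5 lower in PEO-4 than in SKOV-3 (medians 0.41, 1.39 and -0.56). SKOV-3, which lacked TBX18, had TBX15 at 42 CPM against 0.259 CPM in T1074 (7.34, edgeR adjusted p = 1.1e-11) and TBX1 at 23.2 CPM against 0.104 CPM (7.54, edgeR adjusted p = 1.25e-08). TBX3 was lower in both carcinoma lines, at 0.168 CPM in PEO-4 and 0.0736 CPM in SKOV-3 against 36.9 CPM in T1074 (-7.77 and -8.88, edgeR adjusted p = 4.34e-11 and 3.4e-11).

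Of 10 tested relatives and E-protein partners of TCF21, 2 were higher and 6 lower in PEO-4 than in T1074, 4 higher and 4 lower in SKOV-3 than in T1074, and 2 higher and 5 lower in PEO-4 than in SKOV-3 (medians -1.21, 0.12 and -0.83). MSC, the closest relative of TCF21, was at 0.108 CPM in PEO-4, 45.1 CPM in SKOV-3 and 9.16 CPM in T1074, lower in PEO-4 than in T1074 (-6.31, edgeR adjusted p = 1.14e-10). HAND2, a helix-loop-helix protein of heart and limb, was lower in PEO-4 (0.0461 against 8.55 CPM in T1074, -7.57, edgeR adjusted p = 4.81e-09) and in SKOV-3 (0.0301 CPM, -8.02, edgeR adjusted p = 4.68e-09). The E-protein gene TCF4 was lower in SKOV-3, at 0.171 against 52.1 CPM in T1074 (-8.23, edgeR adjusted p = 6.15e-11).

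Of 8 tested NR2 relatives and COUP-TF corepressors, 3 were higher and 2 lower in PEO-4 than in T1074, 4 higher and 2 lower in SKOV-3 than in T1074, and 4 higher and 2 lower in PEO-4 than in SKOV-3 (medians 0.42, 0.1 and 0.46). BCL11A, a zinc-finger protein that binds COUP-TF receptors, was higher in both carcinoma lines, at 29.2 CPM in PEO-4 and 9.81 CPM in SKOV-3 against 0.0836 CPM in T1074 (8.31 and 6.73, edgeR adjusted p = 4.41e-12 and 4.51e-11). Of 12 tested LIM-homeobox genes and LIM cofactors, 4 were higher and 5 lower in PEO-4 than in T1074, 8 higher and 2 lower in SKOV-3 than in T1074, and 5 higher and 5 lower in PEO-4 than in SKOV-3 (medians 0.31, 2.37 and -0.32). LHX1, a gene of kidney and Müllerian duct development, was at 25.8 CPM in SKOV-3 against 0.0416 CPM in T1074 (8.98, edgeR adjusted p = 7.68e-09). LHX6 was higher in both carcinoma lines, at 5.61 CPM in PEO-4 and 1.17 CPM in SKOV-3 against 0.0412 CPM in T1074 (6.98 and 4.73, edgeR adjusted p = 5.52e-09 and 9.01e-07).

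Of 7 tested relatives of the ZIC genes, 1 was higher and 3 lower in PEO-4 than in T1074, 3 higher and 1 lower in SKOV-3 than in T1074, and 1 higher and 3 lower in PEO-4 than in SKOV-3 (medians -1.17, 0.33 and -0.49). ZIC5, which lies beside ZIC2 in the genome, was likewise highest in SKOV-3, at 15 CPM against 0.0635 CPM in T1074 (7.59, edgeR adjusted p = 9.7e-09) and 0.0107 CPM in PEO-4. GLI1, the transcriptional readout of hedgehog signalling, was also higher in SKOV-3, at 11.1 against 2.76 CPM in T1074 (1.97, edgeR adjusted p = 2.58e-05).

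Of 14 tested genes of the gonadal ridge and sex determination, 8 were higher and 4 lower in PEO-4 than in T1074, 4 higher and 7 lower in SKOV-3 than in T1074, and 9 higher and 4 lower in PEO-4 than in SKOV-3 (medians 1.25, -1.64 and 1.28). EMX2, a homeobox gene of the urogenital tract, was at 30.7 CPM in PEO-4 against 0.0286 CPM in T1074 (9.69, edgeR adjusted p = 8.69e-11) and 0.0258 CPM in SKOV-3. WT1, the zinc-finger protein of coelomic epithelium, was at 162 CPM in PEO-4 against 0.943 CPM in SKOV-3 (7.41, edgeR adjusted p = 3.95e-10). NR5A1, with 1 count in PEO-4, 5 in SKOV-3 and 1917 in T1074, was lower in both carcinoma lines than in T1074 (edgeR adjusted p = 2.86e-11 and 3.94e-11). FOXL2, the granulosa cell factor, was also lower in PEO-4 (1.77 against 19.5 CPM in T1074, -3.46, edgeR adjusted p = 1.17e-09) and in SKOV-3 (0.219 CPM, -6.44, edgeR adjusted p = 2.95e-11).

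Of 13 tested mesothelial markers, 3 were higher and 6 lower in PEO-4 than in T1074, 1 higher and 10 lower in SKOV-3 than in T1074, and 7 higher and 3 lower in PEO-4 than in SKOV-3 (medians -0.64, -4.57 and 1.33). CALB2, which encodes calretinin, was lower in PEO-4 and SKOV-3, at 0.0114 and 0.331 CPM against 19.8 CPM in T1074 (edgeR adjusted p = 7.51e-09 and 5.87e-08). MSLN, which encodes mesothelin, was at 438 CPM in PEO-4 against 10.4 CPM in SKOV-3 (5.39, edgeR adjusted p = 2.53e-10). Of 10 tested granulosa and steroidogenic genes, 3 were higher and 7 lower in PEO-4 than in T1074, with the same counts in SKOV-3 against T1074, and 4 were higher and 3 lower in PEO-4 than in SKOV-3 (medians -2.71, -2.45 and 0.22). FST, which encodes the activin antagonist follistatin, was at 0.189 CPM in PEO-4 and 0.0304 CPM in SKOV-3 against 9.09 CPM in T1074 (-5.59 and -8.1, edgeR adjusted p = 8.35e-10 and 2.51e-10). HSD17B1 of the same list went the other way, at 9.86 CPM in PEO-4 and 2.94 CPM in SKOV-3 against 0.307 CPM in T1074 (4.89 in PEO-4, edgeR adjusted p = 2e-09).

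**Figure D5:**
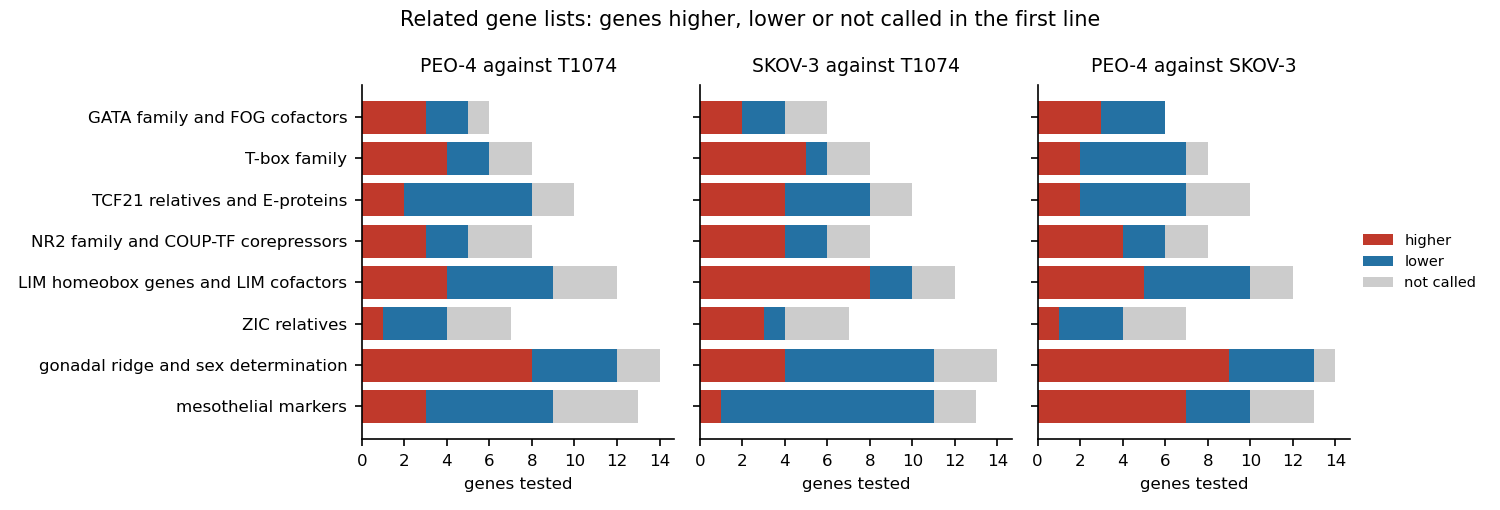
Number of tested genes of 8 related lists that were higher (red), lower (blue) or not called (grey) in the first line of each comparison. In SKOV-3 against T1074, 10 of 13 mesothelial markers were lower and 8 of 12 LIM-homeobox and cofactor genes were higher. Over all genes tested in that comparison, 34.5% were lower and 33.3% higher.

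Fibroblast and epithelial markers also differed between the lines. Of 12 fibroblast and stromal markers tested, 2 were higher and 10 lower in PEO-4 than in T1074, 4 higher and 8 lower in SKOV-3 than in T1074, and 2 higher and 8 lower in PEO-4 than in SKOV-3 (medians -5.98, -3.69 and -5.17). COL1A1, which encodes a chain of type I collagen, averaged 0.75 CPM in PEO-4 against 486 CPM in T1074 (-9.32, edgeR adjusted p = 2.75e-08). COL1A2 of the same list averaged only 0.612 CPM in T1074 and was higher in SKOV-3, with overlap (3.65 CPM, 2.53, edgeR adjusted p = 0.000862). VIM, which encodes vimentin, averaged 0.126 CPM in PEO-4 against 634 CPM in T1074 (-12.27, edgeR adjusted p = 6.95e-12). THY1 went the other way in that comparison, with overlap (81.7 CPM in PEO-4 against 45.1 CPM in T1074, 0.85, edgeR adjusted p = 0.00397). Of 15 epithelial markers tested, 12 were higher and 1 lower in PEO-4 than in T1074, 11 higher and 2 lower in SKOV-3 than in T1074, and 11 higher and 1 lower in PEO-4 than in SKOV-3 (medians 8.16, 1.71 and 2.61). PAX8, a factor of Müllerian epithelium, was at 106 CPM in PEO-4 and 92.4 CPM in SKOV-3 against 0.0951 CPM in T1074 (9.89 and 9.68, edgeR adjusted p = 9.64e-13 and 1.39e-12). Of 6 endothelial markers tested, 5 were lower in PEO-4 than in T1074 and 3 lower and 2 higher in SKOV-3, with summed TPM between 0.05 and 0.28 for PEO-4, between 10.2 and 13.3 for SKOV-3 and between 10.1 and 20.6 for T1074. EGFL7 carried most of the SKOV-3 and T1074 sums, at 11.7 TPM in SKOV-3 and 10.9 TPM in T1074, with PECAM1 at 0.175 and 0.04 TPM. TEK added 3.3 TPM in T1074. It was at 30.8 CPM there against 0.00732 CPM in PEO-4 and 0.0251 CPM in SKOV-3 (-11.76 and -10.1, edgeR adjusted p = 2.13e-10 and 2.97e-10). Of 4 leukocyte markers tested, 2 were higher and 2 lower in PEO-4 than in T1074 and 3 lower in SKOV-3, with summed TPM between 0.48 and 0.8 for PEO-4, between 0.53 and 1.63 for SKOV-3 and between 4.48 and 7.12 for T1074. CD68 (3.77 TPM) and CD14 (1.78 TPM) carried the T1074 leukocyte sum, with PTPRC at 0.0375 TPM. The part of these cell-type differences in the levels of the 10 genes was not tested.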

How the data were processed

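Total RNA from PEO-4, SKOV-3 and T1074 cells was depleted of ribosomal RNA and sequenced in pairs by the authors. Per the labels and the study's methods, they used bcl2fastq 2.20.0.422, Trimmomatic 0.39, STAR 2.7.3a and RSEM 1.3.1 on hg38, and deposited per-transcript expected counts and TPM for each library. The counting strand is not given in the sources used here. Here the deposited expected counts were summed by gene and rounded, and 61415 of 61533 identifiers matched GENCODE 44. Deposited TPM, which the authors' run of RSEM adjusts for transcript length and scales to a fixed total, were summed by gene. edgeR 4.0.16 (R 4.3.3) tested all 19898 genes kept by filterByExpr, with TMM factors, 1 fit of 12 libraries and Benjamini-Hochberg adjustment at 0.05. CPM are rounded summed counts over TMM-scaled library sizes. For the 10 genes, folds with 0 counts in a line use a floor of 3 counts per library. Those of the 10 with few counts in a line get their count ratio instead, and such bounds and ratios do not rank lines against each other. Neighbour and list genes are given with the fitted log2 fold change, also where a line had few counts. EMX2, for example, had 5 counts in T1074 and 5 in SKOV-3, and the size of such fitted changes is uncertain. Exact 95% binomial intervals cover counting error only. On simulated counts for PEO-4 against T1074 the test was checked first. Alternatives are named in the closing section. The text names the 10 genes, the 2 protein-coding genes most like each (mean of at least 1 CPM), annotated genes that overlap one or start within 10 kb of its start, and up to 4 called genes of largest change per list and comparison. A few further marker genes are named for their level, after their values were seen. The 10 genes and the 13 lists were chosen with earlier results of these data known. The replicate numbers did not pair the libraries, as deviations of same-numbered libraries correlated between -0.08 and 0.07. All pairs of libraries differed by more than sampling noise. No library was left out.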

Additional observations from a re-analysis of the deposited data

Results flagged for a closer look

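In PEO-4, 1 library stood apart from the other 3 for 3 genes, in each case because a single count was set against 0 counts. TCF21 was at 0.0215 CPM in PEO-4 replicate 3, ZIC1 at 0.0216 CPM in PEO-4 replicate 4 and ZIC2 at 0.0293 CPM in PEO-4 replicate 1, with 0 CPM in the other 3 PEO-4 libraries of each. All lie under the floor of 3 counts per library. Of 25 groups of 4 libraries examined in this way, 3 met this rule. A single count beside 0 counts always meets it, so the rule's usual chance of about 1 in 20 does not apply to them.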

How the results depend on the processing

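In all 23 alternatives were run, 12 of which left out 1 library. Each comparison had up to 19 of them, 8 with 1 library of its own lines left out. Of 565 values of single genes under these alternatives, 533 kept their direction and their side of the threshold, 21 lost a call, 2 gained one and 9 changed sign. The sign changes were in genes that did not pass the test: NR2F2 in PEO-4 against T1074 was -0.01 without T1074 replicate 2, and LHX9 in SKOV-3 against T1074 was 0.03 with DESeq2's size factors, 0.07 with all genes of at least 1 count, 0.03 with the DESeq2 Wald test, 0.33 with length-scaled TPM, 0.18 and 0.01 without SKOV-3 replicates 1 and 2, and 0.07 without T1074 replicate 2 or 4. Over the fits without 1 library, NR2F2 ranged from -0.01 to 0.44 and LHX9 from -0.16 to 0.18 in these comparisons. The 2 gained calls were NR2F2 in PEO-4 against T1074, without T1074 replicate 4 (0.44) and with length-scaled TPM (0.51). The lost calls were mostly NR2F1 and ZIC2 in PEO-4 against T1074. NR2F1 kept its sign throughout (-0.83 to -0.32, adjusted p between 0.00526 and 0.165 in edgeR or DESeq2) and lost its call in 12 of 19 alternatives, among them each PEO-4 library left out. ZIC2 lost it without PEO-4 replicate 2, 3 or 4, without T1074 replicate 2 and at an adjusted p of 0.01, which also took GATA4 and LHX2 in PEO-4 against SKOV-3. A minimum absolute log2 fold change of 1 took TBX18 in PEO-4 against T1074 and GATA6 in SKOV-3 against T1074, and left 8265 genes called in SKOV-3 against T1074, against 13498 without it. Leaving out 1 library gave 14258 to 15163 called genes in PEO-4 against T1074, 12883 to 13731 in SKOV-3 against T1074 and 14513 to 14740 in PEO-4 against SKOV-3, with 7 to 9, 9 and 8 of the 10 genes called. Library sizes without TMM factors moved the median of all genes to -0.17 and -0.23 in the comparisons with T1074, and 9 of the 10 genes were called in each.

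With the replicate number as a block, 14413, 13094 and 14658 genes were called in PEO-4 against T1074, SKOV-3 against T1074 and PEO-4 against SKOV-3, with 8, 9 and 8 of the 10 genes. The numbers did not pair the libraries, since 3 of 12 correlated best with their own number. TCF21, ZIC1, ZIC2 and LHX2 in PEO-4 and GATA4 in SKOV-3 had under 3 counts in every library, so that their ratios have the wide counting intervals given with them, and the spread of T1074 limits NR2F1 and NR2F2. The cause of these changes was not tested.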
